A study of Sus scrofa with 120 samples.

Results

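The 10 genes described here act in p53 signalling, cell cycle arrest and apoptosis: MDM2, CDKN1A, CDKN1C, GADD45A, GADD45B, PMAIP1, BBC3, BCL2L11, MCL1 and FAS. They were taken by gene symbol from a table of read counts in pig chondrocytes and are 10 of its 31907 gene identifiers. The symbol column named 7 of them, and BBC3, BCL2L11 and FAS were matched by their identifiers (ENSSSCG00000003112, ENSSSCG00000022322 and ENSSSCG00000010448). MCL1 (ENSSSCG00000039314), an antiapoptotic member of the BCL2 family, was listed at 0 in all 120 libraries and could not be tested. The counts do not tell whether MCL1 was silent or its reads were not assigned to it. The other 9 genes passed the filter on low counts in both experiments at both times, and counts of genes below are out of these 9 unless another list is named.

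The transcription factor p53 is held at a low level by MDM2, a ubiquitin ligase whose own gene p53 activates. CDKN1A (p21) and CDKN1C (p57) bind and inhibit cyclin-dependent kinases, and GADD45A and GADD45B are small stress-induced proteins that act on the cell cycle and on stress kinases. PMAIP1 (NOXA), BBC3 (PUMA) and BCL2L11 (BIM) are BH3-only proteins, which bind the antiapoptotic BCL2 proteins and so promote the mitochondrial path to cell death, while FAS is a death receptor on the cell surface. Several of these genes also respond to signals other than p53, among them NF-kB, calcium and stress kinases. Chondrocytes are the only cell type of healthy cartilage and seldom divide there, and their death after injury or under inflammatory cytokines is a known feature of joint disease.

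RNA was sequenced from primary chondrocytes of pig femoral cartilage cast in 2% agarose, in 2 experiments with 4 libraries in each of 30 groups. In the experiment on TRPV4, a calcium-permeable channel, 48 libraries formed 12 groups: DMSO vehicle in free swelling, GSK101 (1 nM), which opens TRPV4, GSK205 (10 uM), which blocks it, cyclic compressive loading to 10% deformation for 3 h, the same loading with GSK205, and interleukin-1 (IL-1, 1 ng/mL), each taken 3 h and 9 h after the start. In the experiment on PIEZO1, another mechanically gated channel, 72 libraries formed 18 groups: untransfected cells (NT), cells given a non-targeting siRNA (siNTC) and cells given siRNAs against PIEZO1 (siPIEZO1), each under DMSO vehicle, a single compression to 80% deformation or the PIEZO1 agonist Yoda1 (5 uM), at 3 h and 9 h. The doses of GSK205 and Yoda1 are in uM in the series description and in mM in the sample protocols, and the former is printed. The labels do not tie libraries to animals, so p-values measure only how libraries of a group spread, which may be technical. In a bulk library, fewer cells of a type and less RNA per cell cannot be told apart.

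Library totals ran from 20651530 to 80223797 counts in the TRPV4 experiment and from 36807992 to 66240251 in the PIEZO1 experiment. The experiments used different library kits and were fitted apart, and levels are not compared between them. All 10 chondrocyte markers were present (summed level 66780 to 125200 and 15480 to 45270 CPM, counts scaled to a library total of 1e6). Of the 8 leukocyte markers, PTPRC, CD3E and MS4A1 stayed below 1 CPM in every library and LYZ was listed at 0, which says nothing of its expression, while CD14, CD68, CSF1R and ITGAM exceeded 1 CPM in at least 1 library of each experiment (summed level of the 8, 27.7 to 103.2 and 6.96 to 58.7 CPM). Adjusted p-values come from the quasi-likelihood test of edgeR, adjusted by Benjamini and Hochberg's method over every gene tested, and a gene was called at an adjusted p under 0.05. A difference is a log2 fold change ± standard error, and the 4 values of a group are in CPM in the order of the replicate numbers.

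GSK101 raised 8 of the 9 genes at 3 h, all but MDM2, against a background of 40.0% of all tested genes called in either direction. The median log2 fold change of the 9 was 0.98 beside 0.01 over all genes. At 9 h GSK101 raised 4 and lowered 1, while 62.3% of all genes were called, a share near that of the 9. Beside the results at 9 h, the 5 fibroblast markers summed to 560.1 to 573.2 CPM in GSK101 and 418.9 to 457.3 CPM in DMSO, and the chondrocyte markers to 69380 to 71690 and 79240 to 83300 CPM, and the part of these differences was not tested. IL-1 raised 6 and lowered 2 at 3 h (background 32.2%) and raised 7 with none lower at 9 h (background 65.1%). Loading moved fewer: CDKN1A, CDKN1C and GADD45B were higher at 3 h (background 10.2%), and at 9 h CDKN1C was higher and CDKN1A, GADD45A and BCL2L11 were lower (background 23.7%). GSK101, IL-1, loading and GSK205 were each compared with the same 4 DMSO libraries at each time, so these comparisons share that error.

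**Figure D1:**
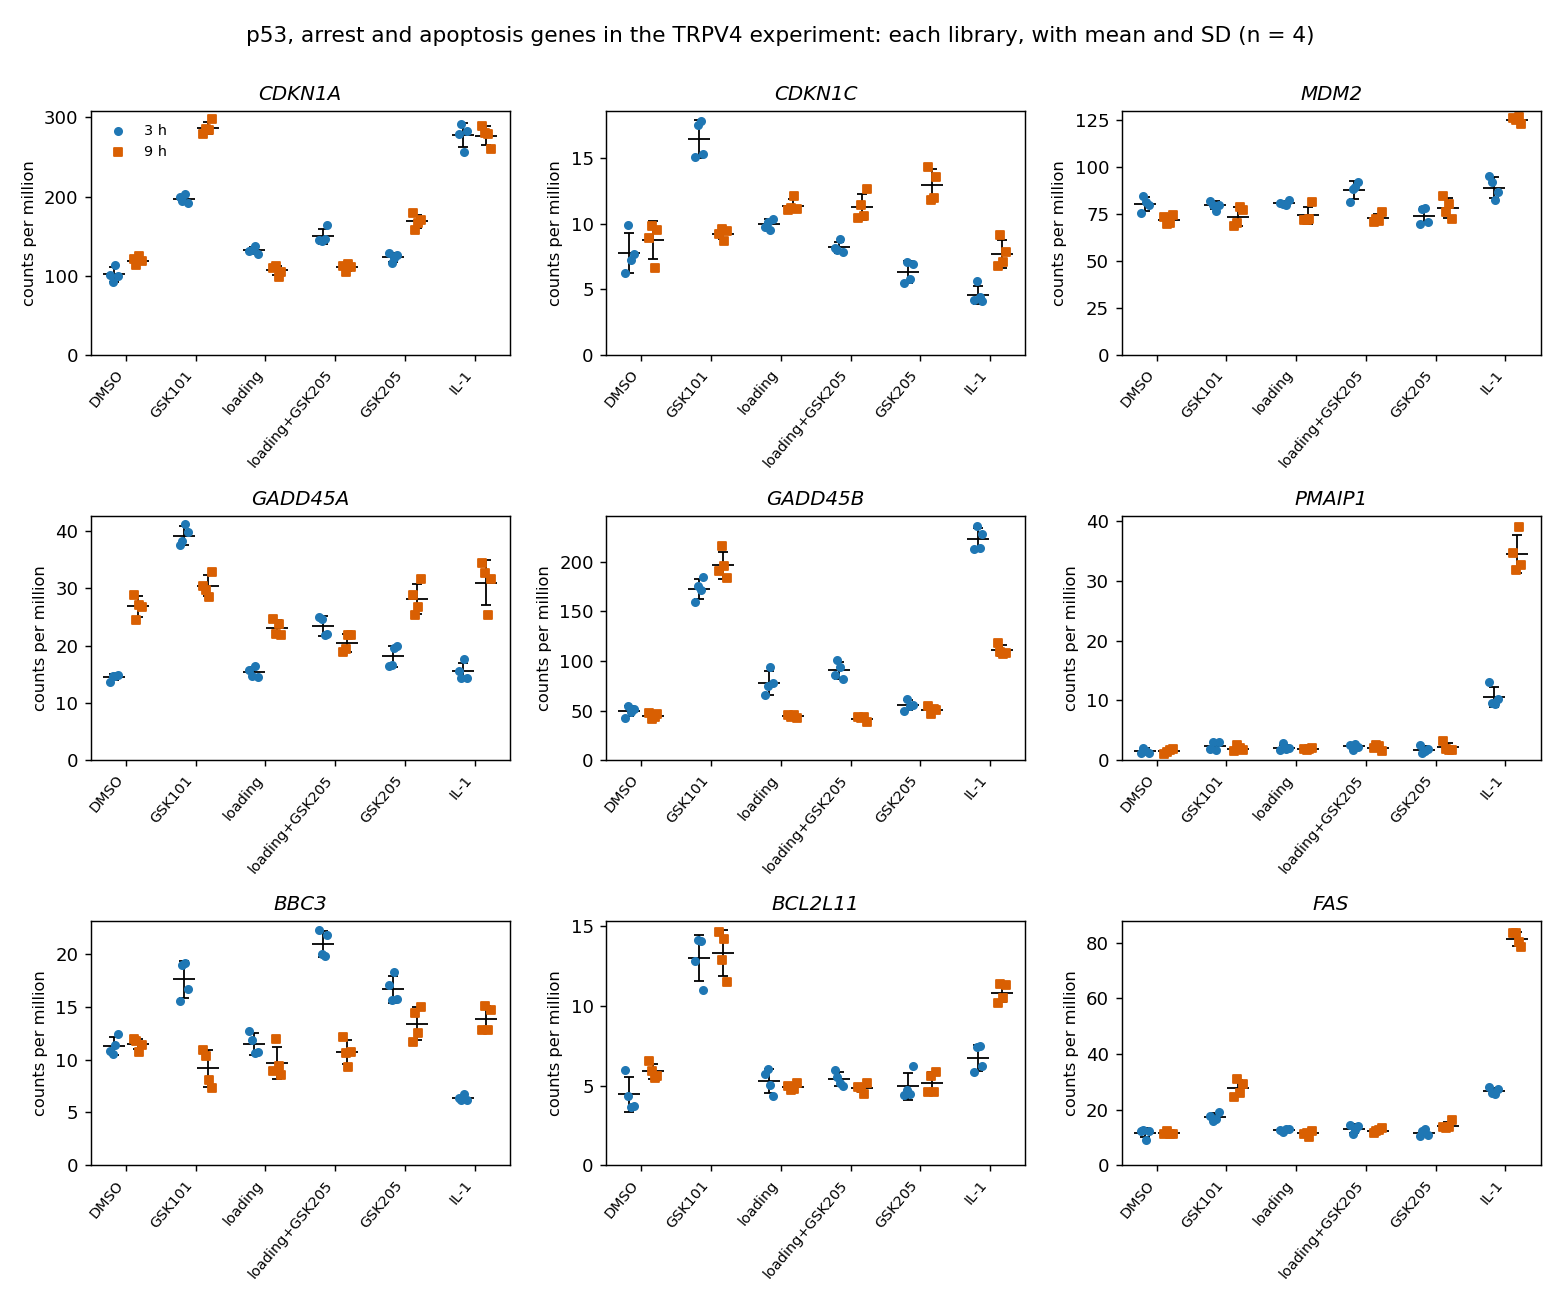
Level of 9 genes in CPM (vertical axes, linear from 0) in each library of the TRPV4 experiment, by treatment and time (circles, 3 h; squares, 9 h), with the mean and SD of 4 libraries as bars. PMAIP1 and FAS stand highest in IL-1 at 9 h, at 34.6 and 81.4 CPM on average, and GADD45A stands highest in GSK101 at 3 h, at 39.2 CPM.

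CDKN1A (ENSSSCG00000001565; chromosome 7, 32354776 to 32363771 in Sscrofa11.1), which stops the cell cycle by inhibiting cyclin-dependent kinases, rose with both agents at both times. The DMSO libraries held 101.4, 92.0, 114 and 99.6 CPM at 3 h and the GSK101 libraries 200.0, 194, 203 and 192 CPM. Every GSK101 library lay above every DMSO library, and the mean rose 1.97-fold, from 102 ± 8.92 to 197 ± 4.97 CPM (SD, n = 4; log2 0.98 ± 0.058, adjusted p = 1.3e-14). At 9 h it stood at 121, 113, 125 and 118 CPM in DMSO and 279, 285, 284 and 298 CPM in GSK101, again without overlap, a 2.36-fold rise (log2 1.24 ± 0.047, adjusted p = 5.2e-21). The rise under GSK101 was larger at 9 h than at 3 h, by 0.31 ± 0.074, adjusted p = 4.3e-04. IL-1 gave 279, 291, 256 and 283 CPM at 3 h and 289, 279.8, 279 and 260.1 CPM at 9 h. These lay far above DMSO at both times (2.75-fold, log2 1.46 ± 0.059, adjusted p = 2.8e-19; 2.28-fold, log2 1.19 ± 0.047, adjusted p = 8.1e-21), and the IL-1 effect was smaller at 9 h by a log2 difference of -0.23 ± 0.074, adjusted p = 0.0095. Over the 12 groups the means ran from 102 CPM in DMSO at 3 h to 286 CPM in GSK101 at 9 h. IL-1 at both times and GSK101 at 9 h were the 3 highest groups, and their libraries overlapped. GSK101 at 3 h stood apart from its neighbours on either side.

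CDKN1C (ENSSSCG00000040461; chromosome 2, 2019391 to 2022092), another inhibitor of cyclin-dependent kinases, went in opposite directions with the agonist and the cytokine at 3 h. Its levels were 6.27, 9.90, 7.20 and 7.69 CPM in DMSO, 15.1, 17.5, 17.8 and 15.3 CPM in GSK101 and 4.17, 5.62, 4.41 and 4.14 CPM in IL-1. All 4 GSK101 libraries were above and all 4 IL-1 libraries below DMSO: GSK101 raised it 2.15-fold (log2 1.10 ± 0.11, adjusted p = 4.6e-09) and IL-1 lowered it 1.67-fold (log2 -0.74 ± 0.12, adjusted p = 2.0e-05). At 9 h neither difference was called, with 8.72 CPM in DMSO, 9.22 CPM in GSK101 and 7.69 CPM in IL-1. The change of the effect between times was called for both (GSK101, log2 -1.002 ± 0.16, adjusted p = 6.0e-07; IL-1, log2 0.57 ± 0.17, adjusted p = 0.0045).

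MDM2 (ENSSSCG00000000488; chromosome 5, 33105717 to 33137602), the ubiquitin ligase that removes p53 and is one of its best known target genes, varied least of the 9. Its highest group mean was 1.74 times its lowest. At 3 h the DMSO libraries held 75.5, 84.4, 81.6 and 80.1 CPM and the GSK101 libraries 82.2, 79.9, 76.8 and 79.7 CPM, which overlap (log2 0.01 ± 0.053, adjusted p = 0.94). GSK101 gave no call at 9 h either (log2 0.01 ± 0.051, adjusted p = 0.9). IL-1 at 9 h stood alone: its libraries held 126, 125, 126 and 123 CPM against 73.5, 69.8, 70.4 and 74.4 CPM in DMSO, a 1.71-fold rise without overlap (log2 0.77 ± 0.05, adjusted p = 6.2e-15). At 3 h IL-1 gave 95.4, 92.0, 82.5 and 86.6 CPM, overlapping DMSO (log2 0.16 ± 0.054, adjusted p = 0.021). That early call was lost without DMSO replicate 1 or IL-1 replicates 1 or 2 (adjusted p up to 0.099). It was also lost with no filter on low counts (0.09) and with protein-coding genes only (0.065). The IL-1 effect grew between the times by 0.65 ± 0.073, adjusted p = 1.4e-10.

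The GADD45 genes, both induced by stress, took different courses. GADD45A (ENSSSCG00000037066; chromosome 6, 144940702 to 144944089) held 13.7, 14.6, 14.6 and 14.9 CPM in DMSO and 37.5, 38.2, 41.2 and 39.9 CPM in GSK101 at 3 h. The groups did not overlap, and the rise was 2.75-fold (log2 1.46 ± 0.08, adjusted p = 1.5e-15). At 9 h DMSO itself had risen to 28.9, 24.5, 27.2 and 26.8 CPM (9 h against 3 h, log2 0.89 ± 0.084, adjusted p = 4.3e-12), and GSK101 libraries at 30.5, 29.8, 28.6 and 32.9 CPM were not called against it (log2 0.16 ± 0.082, adjusted p = 0.096). DESeq2 (adjusted p = 0.049), edgeR with the size factors of DESeq2 (0.04) and a fit of only these groups (0.031) did call it higher. The GSK101 effect was lower at 9 h by a log2 difference of -1.26 ± 0.12, adjusted p = 2.7e-13. IL-1 left GADD45A without a call at 3 h (log2 0.11 ± 0.083, adjusted p = 0.33). At 9 h its small difference (log2 0.19 ± 0.081, adjusted p = 0.044) was called with overlapping libraries and was lost when any of 6 of the 8 libraries was left out, DMSO replicates 2, 3 and 4 and IL-1 replicates 1, 2 and 4 (adjusted p up to 0.17).

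GADD45B (ENSSSCG00000022689; chromosome 2, 76107928 to 76111458) had the largest rise of the 9 under GSK101. At 3 h it stood at 42.7, 54.9, 48.6 and 51.9 CPM in DMSO, 159, 175, 172 and 184 CPM in GSK101 and 213, 236, 214 and 229 CPM in IL-1. Both treated groups lay wholly above DMSO, 3.53-fold for GSK101 (log2 1.82 ± 0.088, adjusted p = 6.9e-17) and 4.54-fold for IL-1 (log2 2.18 ± 0.09, adjusted p = 4.6e-19). By 9 h the order of the agents had turned, with 191, 216, 196 and 184 CPM in GSK101 and 118, 109, 107 and 108 CPM in IL-1 against 47.2, 41.6, 43.3 and 46.2 CPM in DMSO. The GSK101 rise was then 4.34-fold (log2 2.12 ± 0.056, adjusted p = 2.9e-25) and the IL-1 rise 2.44-fold (log2 1.29 ± 0.055, adjusted p = 7.8e-20). Between 3 h and 9 h the GSK101 effect grew (log2 0.34 ± 0.11, adjusted p = 0.0066) and the IL-1 effect shrank (log2 -0.86 ± 0.11, adjusted p = 2.7e-09).

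Of the BH3-only genes, PMAIP1 (ENSSSCG00000026454; chromosome 1, 161184458 to 161188138), which neutralises MCL1, answered IL-1 most. DMSO libraries held 1.23, 2.09, 1.60 and 1.12 CPM at 3 h and 1.06, 1.34, 1.74 and 1.78 CPM at 9 h, which is 27 to 57 counts per library, so its basal level rests on few reads. IL-1 libraries held 13.02, 9.49, 9.36 and 10.2 CPM at 3 h and 34.7, 31.8, 39.0 and 32.8 CPM at 9 h. No IL-1 library overlapped DMSO, and the rise was 7.03-fold at 3 h (log2 2.81 ± 0.23, adjusted p = 2.4e-11) and 22.9-fold at 9 h (log2 4.52 ± 0.17, adjusted p = 2.6e-21). The IL-1 effect grew by a log2 difference of 1.74 ± 0.30, adjusted p = 4.7e-06. At 9 h IL-1 libraries held 36091153 to 63598533 counts and DMSO libraries 24190041 to 35352928. The PMAIP1 calls for IL-1 held in all 7 alternative settings at each time, among them counts thinned to the shallowest library. At 9 h the log2 fold change ran from 4.425 to 4.564 over these settings. Under GSK101 the libraries at 3 h held 1.94, 2.95, 1.67 and 2.97 CPM and overlapped DMSO (log2 0.68 ± 0.24, adjusted p = 0.022). That call was lost without GSK101 replicates 2 or 4 or DMSO replicates 1 or 4 (adjusted p up to 0.093) and, with counts thinned to the shallowest library, at adjusted p = 0.053. The GSK101 libraries at 3 h were the deepest, 62677053 to 80223797 counts beside 20651530 to 29904509 in DMSO, and 7 of the 9 genes were called for GSK101 at 3 h after this thinning, all but MDM2 and PMAIP1. The summed chondrocyte markers were 113900 to 125200 CPM in these GSK101 libraries and 88600 to 106600 CPM in DMSO at 3 h, and their part in the result was not tested. Small noncoding RNAs took 4.74 to 6.45% of the counts in GSK101 and 8.09 to 13.7% in DMSO, and 8 of the 9 genes were called with protein-coding genes only.

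BBC3 (chromosome 6, 53037103 to 53046902), a direct p53 target that binds all antiapoptotic BCL2 proteins, rose with the agonist and fell with the cytokine at 3 h. It stood at 10.8, 10.5, 11.3 and 12.4 CPM in DMSO, 15.5, 18.9, 19.1 and 16.7 CPM in GSK101 and 6.33, 6.21, 6.71 and 6.15 CPM in IL-1. The 3 groups did not overlap: GSK101 was 1.58-fold higher (log2 0.66 ± 0.086, adjusted p = 3.0e-07) and IL-1 1.76-fold lower than DMSO (log2 -0.82 ± 0.093, adjusted p = 2.0e-08). At 9 h GSK101 libraries held 10.9, 10.4, 8.02 and 7.32 CPM against 11.9, 11.7, 10.8 and 11.4 CPM in DMSO, a fall with overlap (log2 -0.35 ± 0.12, adjusted p = 0.011) that was lost without GSK101 replicate 4 (adjusted p = 0.074). IL-1 at 9 h, with 12.8, 15.1, 12.8 and 14.7 CPM, was not called (log2 0.25 ± 0.11, adjusted p = 0.055), though 4 of 7 alternative settings called it (adjusted p from 0.0054 when only these groups were fitted to 0.042 with a replicate block). Both effects differed between the times, GSK101 by -0.97 ± 0.15, adjusted p = 2.9e-07 and IL-1 by 1.10 ± 0.15, adjusted p = 2.4e-08.

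BCL2L11 (chromosome 3, 45156791 to 45202996), a BH3-only gene driven by FOXO factors and held down by growth factor signalling, was highest in the GSK101 groups. At 3 h its levels were 6.00, 4.34, 3.69 and 3.75 CPM in DMSO and 12.8, 14.2, 14.1 and 11.03 CPM in GSK101, and at 9 h 6.56, 5.93, 5.47 and 5.61 CPM and 14.7, 12.9, 14.2 and 11.5 CPM. Neither pair overlapped, and the rise was 3.00-fold at 3 h (log2 1.58 ± 0.14, adjusted p = 2.0e-10) and 2.21-fold at 9 h (log2 1.15 ± 0.1, adjusted p = 9.5e-12). IL-1 gave 5.88, 7.43, 7.48 and 6.23 CPM at 3 h, with overlap (log2 0.64 ± 0.15, adjusted p = 0.001), and 10.2, 11.3, 10.5 and 11.3 CPM at 9 h, without (log2 0.85 ± 0.098, adjusted p = 4.1e-09). The gene overlaps the end of ACOXL and the gene LOC110260116 in the annotation, and the strand setting of the counting is not given in the sources used here, so reads of overlapping genes could not be told apart.

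FAS (chromosome 14, 100927305 to 100954781), the death receptor that recruits FADD and caspase-8, rose with both agents and more at 9 h. At 3 h it stood at 12.3, 12.8, 9.25 and 12.1 CPM in DMSO, 17.9, 15.8, 16.7 and 19.0 CPM in GSK101 and 28.0, 25.9, 25.4 and 27.4 CPM in IL-1. Both treated groups were wholly above DMSO (GSK101 1.52-fold, log2 0.60 ± 0.096, adjusted p = 8.6e-06; IL-1 2.32-fold, log2 1.21 ± 0.097, adjusted p = 9.1e-12). At 9 h DMSO held 11.4, 12.3, 11.12 and 11.07 CPM, GSK101 held 24.7, 31.1, 26.0 and 29.3 CPM and IL-1 83.5, 83.4, 80.3 and 78.3 CPM. IL-1 then stood 6.95-fold above DMSO (log2 2.80 ± 0.075, adjusted p = 2.7e-25) and GSK101 2.38-fold (log2 1.25 ± 0.076, adjusted p = 1.7e-15). Both effects grew with time (GSK101, log2 0.69 ± 0.12, adjusted p = 3.9e-06; IL-1, log2 1.62 ± 0.12, adjusted p = 2.0e-16). Beside these IL-1 results, the summed level of the 8 leukocyte markers was 34.7 to 39.6 CPM in DMSO and 52.2 to 63.4 CPM in IL-1 at 3 h, and 32.2 to 40.0 and 92.8 to 103.2 CPM at 9 h, with PTPRC, CD3E and MS4A1 below 1 CPM throughout. The 5 fibroblast markers summed to 544.8 to 589 CPM in DMSO and 575.6 to 611.5 CPM in IL-1 at 3 h, and to 418.9 to 457.3 and 1086 to 1199 CPM at 9 h. The part of other cell types in the IL-1 results was not tested.

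**Figure D2:**
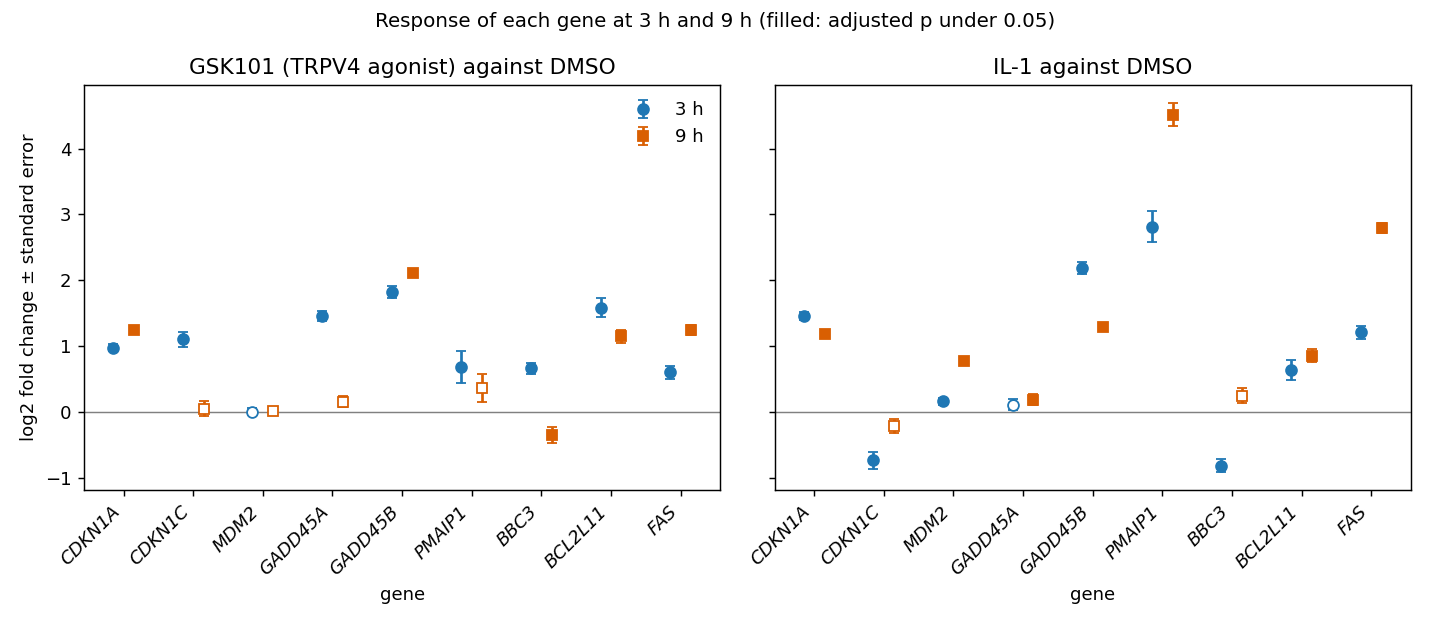
Log2 fold change against DMSO with its standard error (vertical axis) for 9 genes under GSK101 (left panel) and IL-1 (right panel) at 3 h (circles) and 9 h (squares); filled symbols passed an adjusted p of 0.05. CDKN1C and BBC3 lie above 0 under GSK101 and below 0 under IL-1 at 3 h, and PMAIP1 under IL-1 at 9 h is the highest point, at 4.52.

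The agonist and the cytokine were also compared directly, a comparison added after the values had been seen. All 9 genes differed between GSK101 and IL-1 at 3 h (background 41.5%). CDKN1C (log2 1.84 ± 0.12), BBC3 (1.48 ± 0.089), GADD45A (1.35 ± 0.079) and BCL2L11 (0.95 ± 0.13) were higher in GSK101. PMAIP1 (-2.13 ± 0.21), FAS (-0.61 ± 0.091), CDKN1A (-0.48 ± 0.057), GADD45B (-0.36 ± 0.084) and MDM2 (-0.15 ± 0.053) were lower. The adjusted p for MDM2 was 0.02 and rose to as much as 0.096 without GSK101 replicate 3 or IL-1 replicates 1 or 2, while those of the other genes ran up to 8.0e-04 for GADD45B. The MDM2 call was also lost with counts thinned to the shallowest library (adjusted p = 0.052) and with no filter on low counts (0.053). At 3 h GSK101 libraries held 62677053 to 80223797 counts and IL-1 libraries 25574511 to 48666122. Their summed chondrocyte markers were 113900 to 125200 and 90410 to 98740 CPM. The leukocyte markers were 29.98 to 32.9 and 52.16 to 63.44 CPM, and the part of these differences was not tested. At 9 h 7 of the 9 differed (background 53.8%): GADD45B (log2 0.83 ± 0.053, adjusted p = 4.3e-15), BCL2L11 (0.29 ± 0.095, adjusted p = 0.0096) and CDKN1C (0.26 ± 0.11, adjusted p = 0.045) were higher in GSK101. PMAIP1 (-4.15 ± 0.17), FAS (-1.55 ± 0.071), MDM2 (-0.76 ± 0.051) and BBC3 (-0.60 ± 0.12) were lower, with no adjusted p above 5.9e-05. The CDKN1C call at 9 h was lost without any of GSK101 replicates 1, 2 and 4 and IL-1 replicates 1, 3 and 4 (adjusted p up to 0.15). It was also lost with DESeq2 (0.064), no filter on low counts (0.08) and counts thinned to the shallowest library (0.089). CDKN1A did not pass the test at 9 h (log2 0.05 ± 0.046, adjusted p = 0.39), nor did GADD45A (-0.03 ± 0.081, adjusted p = 0.8). At 9 h GSK101 libraries held 22210499 to 31454500 counts and IL-1 libraries 36091153 to 63598533. The fibroblast markers summed to 560.1 to 573.2 CPM in GSK101 and 1086 to 1199 CPM in IL-1. The leukocyte markers summed to 30.13 to 37.78 and 92.79 to 103.2 CPM, and the chondrocyte markers to 69380 to 71690 and 72500 to 80600 CPM. The part of these differences at 9 h was not tested.

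Cyclic loading, the mechanical stimulus of this experiment, raised GADD45B and CDKN1A at 3 h. GADD45B stood at 65.5, 74.3, 94.0 and 77.4 CPM under loading, above all DMSO libraries (1.58-fold, log2 0.66 ± 0.088, adjusted p = 4.0e-06). CDKN1A stood at 131, 133, 138 and 127 CPM, also without overlap (1.31-fold, log2 0.39 ± 0.058, adjusted p = 2.2e-05). CDKN1C, at 9.71, 10.1, 9.54 and 10.4 CPM, overlapped DMSO (log2 0.37 ± 0.12, adjusted p = 0.042). That call was lost in 7 of 8 leave-one-out fits, all but the one without DMSO replicate 2 (adjusted p up to 0.14), and in 5 of 7 alternative settings (up to 0.12). Loading libraries at 3 h held 31848889 to 66758428 counts beside 20651530 to 29904509 in DMSO. Small noncoding RNAs took 5.81 to 7.03% of the counts under loading and 8.09 to 13.7% in DMSO. The calls of CDKN1A and GADD45B at 3 h held in all 7 alternative settings, among them thinned counts and protein-coding genes only. At 9 h neither gene was above DMSO: CDKN1A was slightly below DMSO (110.3, 113, 98.9 and 105 CPM; log2 -0.17 ± 0.046, adjusted p = 0.0057) and GADD45B stood at 44.0 CPM beside 44.6 CPM (log2 -0.03 ± 0.055, adjusted p = 0.71). CDKN1C was then higher, at 11.05, 11.2, 12.1 and 11.08 CPM (log2 0.35 ± 0.10, adjusted p = 0.012; adjusted p = 0.075 without DMSO replicate 3). Small falls of GADD45A (log2 -0.23 ± 0.081, adjusted p = 0.035) and BCL2L11 (log2 -0.29 ± 0.10, adjusted p = 0.038) at 9 h were each lost in 5 of 8 leave-one-out fits. For GADD45A these were the fits without DMSO replicates 1, 3 or 4 or loading replicates 2 or 4 (adjusted p up to 0.12), and for BCL2L11 those without DMSO replicates 1 or 2 or loading replicates 1, 2 or 3 (up to 0.13). The BCL2L11 call was also lost with no filter on low counts (0.15) and with thinned counts (0.082). The loading effect differed between the times for 3 genes (background 10.1%): GADD45B (log2 -0.66 ± 0.11, adjusted p = 3.2e-05), CDKN1A (-0.54 ± 0.074, adjusted p = 1.1e-06) and BCL2L11 (-0.54 ± 0.18, adjusted p = 0.041), the last lost in 10 of 16 leave-one-out fits (up to 0.12).

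The antagonist GSK205 alone raised 3 genes at 3 h (background 27.1%) and 4 at 9 h (background 21.2%), and lowered none. BBC3 held 17.0, 15.6, 18.3 and 15.7 CPM at 3 h, above all DMSO libraries (1.49-fold, log2 0.57 ± 0.088, adjusted p = 1.3e-05). CDKN1A held 128, 116, 122 and 126 CPM at 3 h and 179, 158, 167 and 170.3 CPM at 9 h, each time above DMSO (log2 0.28 ± 0.058, adjusted p = 4.2e-04; log2 0.48 ± 0.047, adjusted p = 4.0e-09). GADD45A was higher at 3 h (16.5, 16.6, 19.6 and 19.9 CPM; log2 0.33 ± 0.082, adjusted p = 0.0026) and CDKN1C at 9 h (14.3, 11.8, 12.0 and 13.6 CPM; log2 0.54 ± 0.11, adjusted p = 2.7e-04). Agonist and antagonist each raised CDKN1A, GADD45A and BBC3 at 3 h. The summed fibroblast markers at 3 h were 606.7 to 639.5 CPM in GSK205 and 544.8 to 589 CPM in DMSO, and the chondrocyte markers at 9 h were 66780 to 76280 and 79240 to 83300 CPM, and their part in these results was not tested. At 9 h FAS (log2 0.28 ± 0.078, adjusted p = 0.0087) lost its call without GSK205 replicate 4 (adjusted p = 0.06), and GADD45B (log2 0.18 ± 0.056, adjusted p = 0.021) lost its call without GSK205 replicate 1 or DMSO replicates 2 or 3 (up to 0.096).

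Adding GSK205 to loading raised 3 genes above loading alone at 3 h (background 15.3%). BBC3 reached its highest level of the experiment, 22.3, 20.0, 19.8 and 21.8 CPM beside a mean of 11.5 CPM under loading (1.81-fold, log2 0.86 ± 0.085, adjusted p = 1.8e-08), and GADD45A held 25.1, 24.7, 21.9 and 22.0 CPM beside 15.4 CPM (1.51-fold, log2 0.60 ± 0.079, adjusted p = 2.8e-06). Neither overlapped. The CDKN1A difference (log2 0.17 ± 0.058, adjusted p = 0.041) was lost in 6 of 8 leave-one-out fits, all but those without GSK205 plus loading replicate 2 or loading replicate 3 (up to 0.19). At 9 h 0 of the 9 were called by edgeR (background 4.10%), with 1 at an unadjusted p under 0.05 and 0 called by DESeq2.

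Against GSK205 alone, loading with GSK205 raised 6 genes at 3 h (background 11.9%): GADD45B (log2 0.71 ± 0.087, adjusted p = 8.2e-07), CDKN1A (0.28 ± 0.058, adjusted p = 0.0012), GADD45A (0.36 ± 0.08, adjusted p = 0.002), MDM2 (0.24 ± 0.054, adjusted p = 0.0027), BBC3 (0.33 ± 0.084, adjusted p = 0.0087) and CDKN1C (0.37 ± 0.12, adjusted p = 0.038). The CDKN1C call held only without GSK205 replicates 2 or 4 among the leave-one-out fits (up to 0.14). At 9 h the same comparison lowered 4 (background 18.0%): CDKN1A (log2 -0.62 ± 0.047, adjusted p = 7.2e-11), GADD45A (-0.47 ± 0.082, adjusted p = 1.1e-04), BBC3 (-0.34 ± 0.11, adjusted p = 0.038) and GADD45B (-0.30 ± 0.056, adjusted p = 2.6e-04). The BBC3 call was lost in 5 of 8 leave-one-out fits, all but those without GSK205 replicates 1 or 3 or combination replicate 1 (up to 0.14). CDKN1A at 9 h stood at 113, 105, 115 and 110.5 CPM with both, below every GSK205 library. The summed fibroblast markers at 3 h were 493.7 to 581.6 CPM with both and 606.7 to 639.5 CPM in GSK205 alone. At 9 h they were 448.5 to 490 and 397.9 to 436.5 CPM, and the chondrocyte markers 76460 to 81740 and 66780 to 76280 CPM. The part of these differences in the calls against GSK205 and in the interaction below was not tested. Whether the loading effect differed with and without GSK205 was tested as an interaction. At 3 h 0 of 9 were called by edgeR (background 2.25%), 3 had an unadjusted p under 0.05 and DESeq2 called 1, MDM2. At 9 h the interaction was called for CDKN1A (log2 -0.44 ± 0.066, adjusted p = 9.4e-05), CDKN1C (-0.56 ± 0.15, adjusted p = 0.021) and GADD45B (-0.26 ± 0.078, adjusted p = 0.047), against a background of 4.64%. The GADD45B interaction was lost in 13 of 16 leave-one-out fits (up to 0.13), holding only without GSK205 replicate 2, DMSO replicate 1 or loading replicate 4, and the CDKN1C interaction without GSK205 replicate 1 or DMSO replicate 3 (up to 0.055). The GADD45B interaction was also lost with no filter on low counts (0.064), protein-coding genes only (0.062) and thinned counts (0.06).

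**Figure D3:**
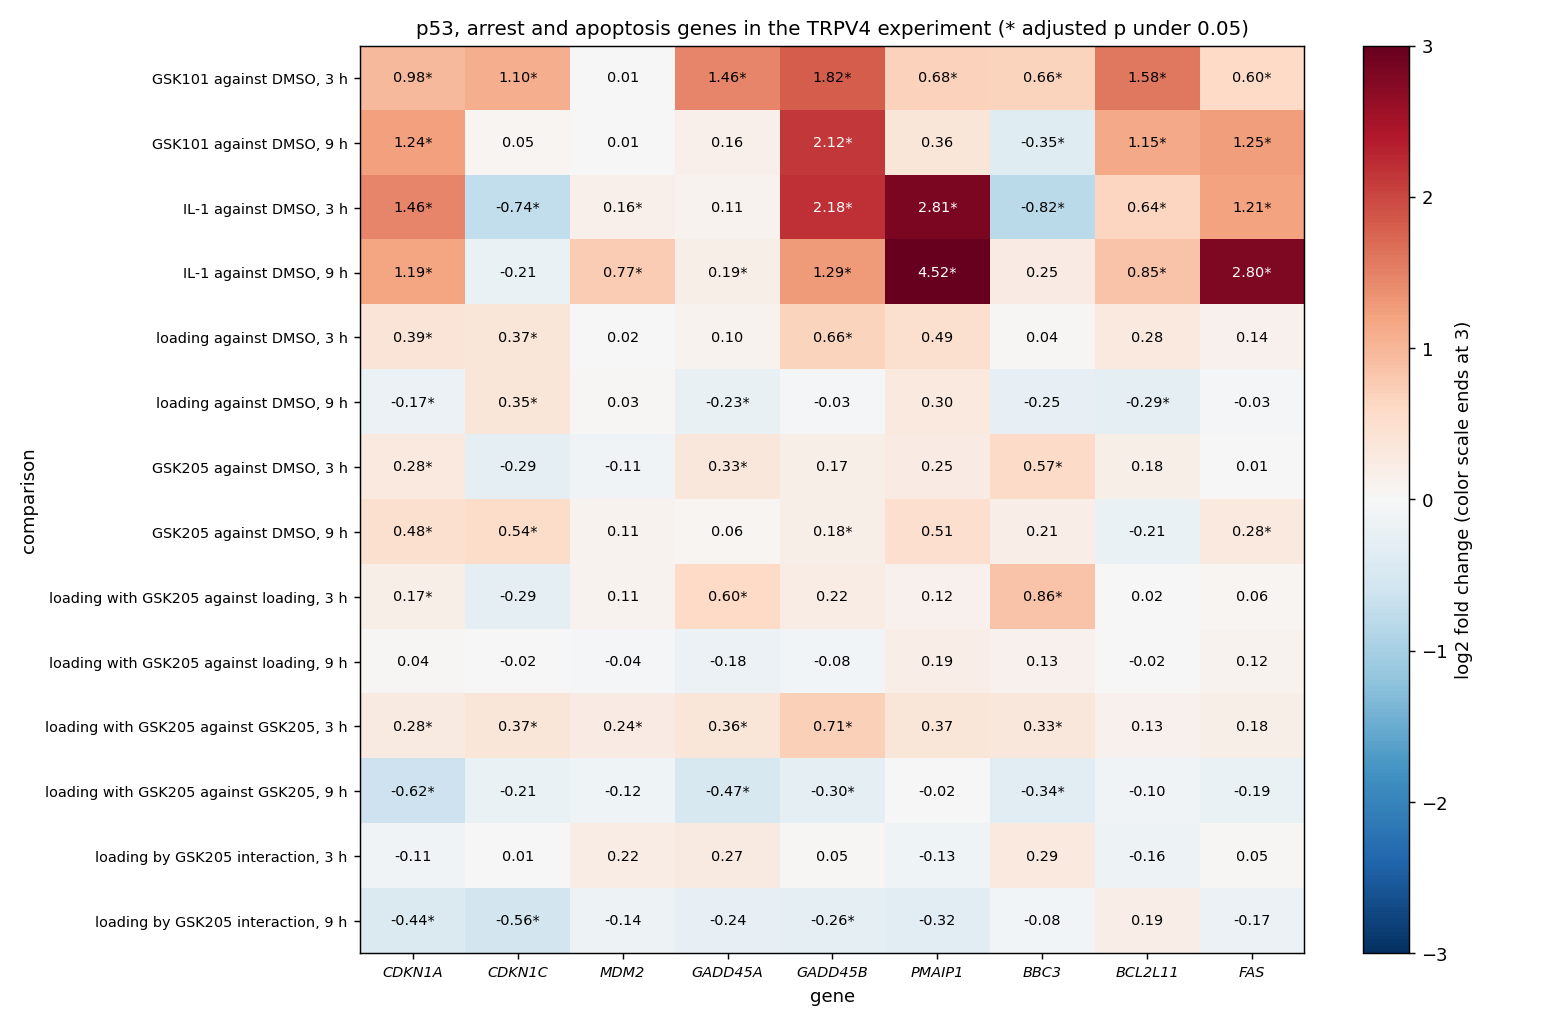
Log2 fold change (number and color) of 9 genes (columns) in 14 comparisons of the TRPV4 experiment (rows); a star marks an adjusted p under 0.05. The rows of GSK101 and of IL-1 against DMSO at 3 h have 8 stars each, and the interaction of loading with GSK205 at 3 h has none.

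Without any stimulus, 4 genes differed between the DMSO groups at 9 h and 3 h (background 22.2%). GADD45A (log2 0.89 ± 0.084, adjusted p = 4.3e-12), CDKN1A (0.23 ± 0.053, adjusted p = 8.4e-04) and BCL2L11 (0.42 ± 0.13, adjusted p = 0.013) were higher at 9 h, and MDM2 (-0.16 ± 0.052, adjusted p = 0.021) was lower. The BCL2L11 call was lost without DMSO 3 h replicates 3 or 4 or DMSO 9 h replicate 1 (up to 0.085), and the MDM2 call without replicates 2 or 3 of either group (up to 0.085). In DMSO the summed chondrocyte markers were 88600 to 106600 CPM at 3 h and 79240 to 83300 CPM at 9 h. The fibroblast markers were 544.8 to 589 and 418.9 to 457.3 CPM, and the part of these differences was not tested. Of the treatment effects described above, 6 genes changed between times under GSK101 (background 45.8%) and 7 under IL-1 (background 38.8%). Under IL-1 MDM2, CDKN1C, PMAIP1, BBC3 and FAS had higher values at 9 h than at 3 h relative to DMSO, and CDKN1A and GADD45B lower ones.

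In the PIEZO1 experiment the siRNAs against PIEZO1 were a set of 3, printed here because they define the knockdown groups (written as the labels give them, which do not state the strand):
siPIEZO1a: cagcgagaucucgcacuccauc
siPIEZO1b: uacgaccugcugcagcuccug
siPIEZO1c: acccgcuggccaugcaguucuu
Under vehicle at 3 h PIEZO1 itself held 3.71, 5.11, 6.97 and 6.75 CPM in siNTC and 4.17, 4.98, 4.62 and 5.13 CPM in siPIEZO1, and at 9 h 6.55, 6.45, 5.31 and 3.76 and 2.25, 4.26, 4.53 and 2.78 CPM. The groups overlapped and neither difference was called (log2 -0.24 ± 0.19, adjusted p = 0.58; -0.66 ± 0.23, adjusted p = 0.062). Over the 3 stimuli the reduction was called at both times (log2 -0.43 ± 0.11, adjusted p = 0.0066 at 3 h; -0.60 ± 0.13, adjusted p = 0.001 at 9 h), and PIEZO1 RNA remained in every siPIEZO1 library.

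The siPIEZO1 groups had more CDKN1A, BCL2L11, PMAIP1 and GADD45B than siNTC. Over the 3 stimuli, a comparison added after the values had been seen, 5 of the 9 genes were higher at 3 h (background 15.1%) and 4 at 9 h (background 19.7%), and none was lower. CDKN1A at 3 h had 327, 366 and 404 CPM (lowest, median, highest) over 12 siPIEZO1 libraries and 194, 241 and 317 CPM over 12 siNTC libraries. The ranges did not overlap, and CDKN1A was 1.48-fold higher (log2 0.56 ± 0.049, adjusted p = 3.2e-11). At 9 h it had 346, 378 and 414 CPM (lowest, median, highest) over 12 siPIEZO1 libraries and 257, 288 and 363 CPM over 12 siNTC libraries, with some overlap (log2 0.34 ± 0.049, adjusted p = 1.3e-06). The 6 siPIEZO1 groups had the 6 highest CDKN1A means of all 18 groups, from 347 to 395 CPM, above 311 CPM in the next, siNTC under Yoda1 at 9 h.

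BCL2L11, the BH3-only gene, had 19.6, 24.4 and 35.6 CPM (lowest, median, highest) over 12 siPIEZO1 libraries and 11.6, 16.9 and 21.2 CPM over 12 siNTC libraries at 3 h (log2 0.61 ± 0.082, adjusted p = 6.8e-07). At 9 h it had 13.4, 16.9 and 18.3 CPM (lowest, median, highest) over 12 siPIEZO1 libraries and 10.3, 12.4 and 15.6 CPM over 12 siNTC libraries (log2 0.42 ± 0.083, adjusted p = 2.0e-04). At each time the lower end of siPIEZO1 overlapped the upper end of siNTC. PMAIP1 was higher at 3 h, with 5.80, 7.93 and 12.2 CPM (lowest, median, highest) over 12 siPIEZO1 libraries and 4.23, 6.39 and 8.78 CPM over 12 siNTC libraries (log2 0.43 ± 0.12, adjusted p = 0.013), and at 9 h, with 7.22, 9.19 and 15.0 CPM (lowest, median, highest) over 12 siPIEZO1 libraries and 4.52, 6.32 and 8.82 CPM over 12 siNTC libraries (log2 0.60 ± 0.097, adjusted p = 1.2e-05). Its ranges also overlapped. GADD45B was higher at both times (log2 0.32 ± 0.069, adjusted p = 0.0012; 0.35 ± 0.099, adjusted p = 0.009) and GADD45A at 3 h (log2 0.58 ± 0.13, adjusted p = 0.0012) but without a call at 9 h (0.15 ± 0.11, adjusted p = 0.37). MDM2, CDKN1C, BBC3 and FAS were not called at either time, and their log2 differences ran from -0.06 for CDKN1C to 0.60 for BBC3, both at 9 h. Beside these results, the summed chondrocyte markers were 27840 to 28850 CPM in siNTC and 15480 to 21810 CPM in siPIEZO1 under vehicle at 3 h, and 25270 to 38180 and 19290 to 24150 CPM at 9 h. The 5 fibroblast markers summed to 581.2 to 625.6 and 239.5 to 384.6 CPM at 3 h and to 684.3 to 1092 and 391 to 461.4 CPM at 9 h. The 8 leukocyte markers ran from 12.7 to 34.0 and 9.28 to 44.7 CPM at 3 h and from 8.29 to 25.9 and 18.3 to 56.0 CPM at 9 h. Under Yoda1 at 9 h the leukocyte markers did not overlap, with 8.82 to 39.8 CPM in siNTC and 43.0 to 58.7 CPM in siPIEZO1. They overlapped under Yoda1 at 3 h and under compression at both times. The part of these differences in the siPIEZO1 results was not tested.

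**Figure D4:**
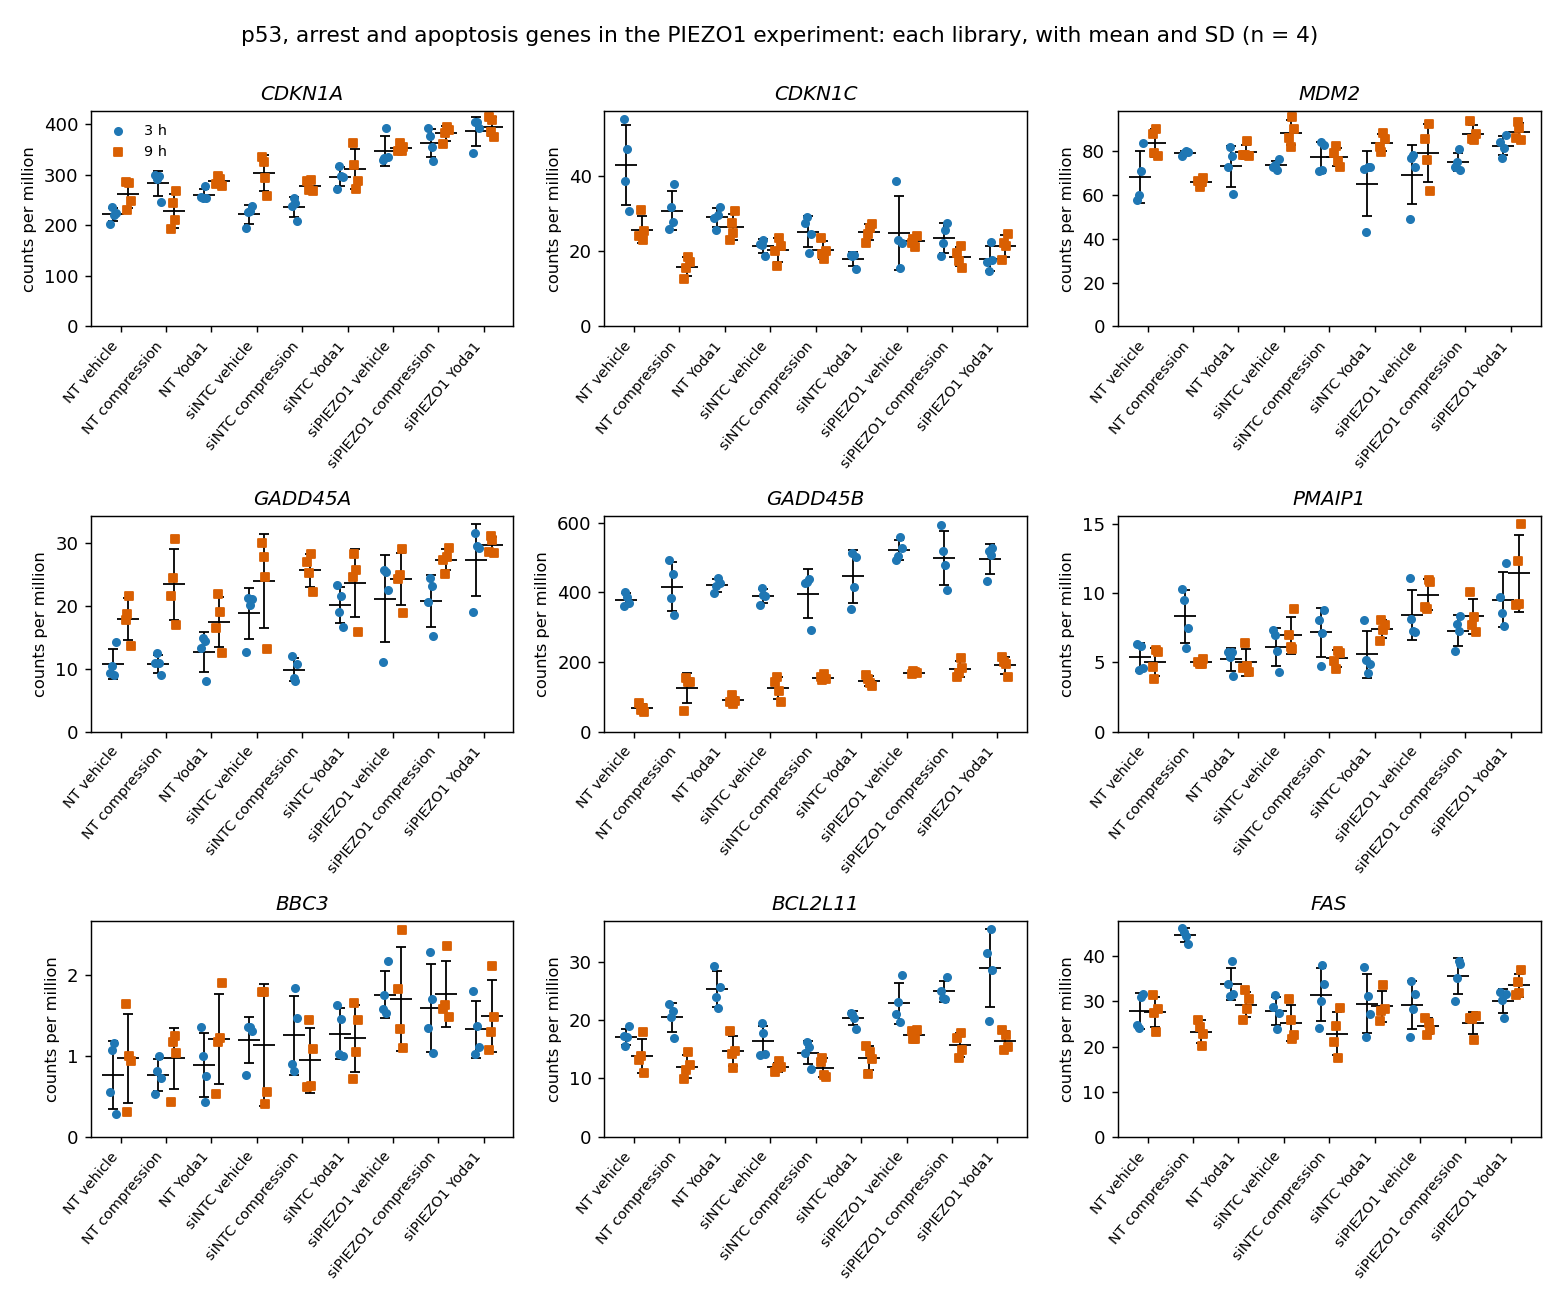
Level of 9 genes in CPM (vertical axes, linear from 0) in each library of the PIEZO1 experiment, by siRNA and stimulus and by time (circles, 3 h; squares, 9 h), with the mean and SD of 4 libraries as bars. All CDKN1A means of the siPIEZO1 groups lie at or above 347 CPM, and all GADD45B libraries at 3 h lie above those at 9 h.

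Under vehicle alone, with 4 libraries a side, siPIEZO1 was above siNTC for 3 genes at 3 h (background 5.07%) and 2 at 9 h (background 10.8%). CDKN1A at 3 h held 194, 227, 228 and 238 CPM in siNTC and 328, 334, 392 and 334 CPM in siPIEZO1, without overlap (1.58-fold, log2 0.66 ± 0.085, adjusted p = 1.1e-06). BCL2L11 at 9 h held 11.09, 11.7, 12.9 and 11.9 CPM and 18.1, 16.8, 16.8 and 18.2 CPM, also without overlap (1.47-fold, log2 0.56 ± 0.14, adjusted p = 0.0091). The other calls depended on single libraries. GADD45B at 3 h (log2 0.43 ± 0.12, adjusted p = 0.026) was lost in 6 of 8 leave-one-out fits, all but those without siPIEZO1 replicates 1 or 2 (up to 0.11). BCL2L11 at 3 h (log2 0.50 ± 0.14, adjusted p = 0.029) was lost without siNTC replicates 1 or 4 or siPIEZO1 replicates 2 or 4 (up to 0.18), and PMAIP1 at 9 h (log2 0.51 ± 0.17, adjusted p = 0.045) in 7 of 8, all but the fit without siNTC replicate 4 (up to 0.16). CDKN1A at 9 h was not called under vehicle (log2 0.22 ± 0.086, adjusted p = 0.09).

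Transfection with the non-targeting siRNA itself went with differences from untransfected cells in 2 genes at 3 h (background 7.53%) and 1 at 9 h (background 5.30%). CDKN1C at 3 h held 55.1, 38.5, 47.1 and 30.6 CPM in NT and 21.9, 21.7, 23.0 and 18.7 CPM in siNTC, without overlap (log2 -1.004 ± 0.19, adjusted p = 3.1e-04). GADD45A was higher in siNTC at 3 h (log2 0.80 ± 0.22, adjusted p = 0.017), a call lost without NT replicates 1 or 3 or siNTC replicates 2, 3 or 4 (up to 0.067). GADD45B at 9 h held 83.5, 61.9, 68.6 and 55.0 CPM in NT and 143, 158, 117 and 86.3 CPM in siNTC (log2 0.89 ± 0.17, adjusted p = 9.9e-04). The siNTC libraries were all above the NT libraries. CDKN1A, which separated siPIEZO1 from siNTC at 3 h, was not called between siNTC and NT (log2 0.0041 ± 0.085, adjusted p = 0.99 at 3 h; 0.20 ± 0.086, adjusted p = 0.23 at 9 h). Beside these results, the fibroblast markers summed to 978.2 to 1068 CPM in NT and 581.2 to 625.6 CPM in siNTC at 3 h, and to 1275 to 1439 and 684.3 to 1092 CPM at 9 h. The chondrocyte markers summed to 34390 to 38260 and 27840 to 28850 CPM at 3 h and overlapped at 9 h. The part of these differences was not tested.

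A single hard compression of untransfected cells raised FAS and CDKN1A at 3 h (background 6.27%). FAS stood at 24.8, 24.1, 31.0 and 31.7 CPM under vehicle and 46.4, 45.5, 44.5 and 42.7 CPM after compression. All compressed libraries were above all vehicle libraries (1.59-fold, log2 0.67 ± 0.14, adjusted p = 0.0021), and this was the highest FAS group of the 18. CDKN1A held 203, 236, 221 and 225 CPM and 299, 291, 297 and 246 CPM, without overlap (log2 0.35 ± 0.085, adjusted p = 0.0087), and lost its call without vehicle replicate 1 (adjusted p = 0.064). At 9 h (background 3.51%) other genes were called. CDKN1C fell from 24.0, 30.8, 22.9 and 25.2 to 12.5, 15.5, 18.4 and 17.0 CPM (log2 -0.71 ± 0.13, adjusted p = 0.0015), and MDM2 from 87.8, 79.1, 90.3 and 77.7 to 66.2, 63.7, 65.8 and 67.7 CPM (log2 -0.35 ± 0.082, adjusted p = 0.01), neither with overlap. The MDM2 call was lost without compression replicate 2 (adjusted p = 0.053). GADD45B rose from 67.3 CPM to 60.0, 153, 143 and 144 CPM (log2 0.89 ± 0.17, adjusted p = 0.0025). Replicate 1 was the low library, within the vehicle range, and the other 3 lay above it. The call was lost when only these groups were fitted (adjusted p = 0.054). At 9 h the summed markers of compressed and vehicle libraries did not overlap either, with 1525 to 1939 and 1275 to 1439 CPM for fibroblast, 39630 to 45030 and 29760 to 39420 CPM for chondrocyte and 14.5 to 53.4 and 9.94 to 12.5 CPM for leukocyte markers, and their part in these results was not tested. The compression effect in NT changed between 3 h and 9 h for 4 genes (background 9.21%): FAS (log2 -0.92 ± 0.19, adjusted p = 6.9e-04), MDM2 (-0.56 ± 0.16, adjusted p = 0.014) and CDKN1A (-0.55 ± 0.12, adjusted p = 0.0013) went down and GADD45B (0.76 ± 0.22, adjusted p = 0.018) went up. The last was lost in 5 of 16 leave-one-out fits, without 3 h compression replicate 4, 9 h vehicle replicate 4 or 9 h compression replicates 2, 3 or 4 (up to 0.082).

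In transfected cells compression gave 1 call. GADD45A in siNTC at 3 h held 12.7, 21.3, 20.2 and 21.1 CPM under vehicle and 12.1, 8.61, 8.08 and 10.7 CPM after compression (log2 -0.93 ± 0.22, adjusted p = 0.029; background 0.911%). The groups did not overlap, and the call was lost in 6 of 8 leave-one-out fits, without replicates 2, 3 or 4 of either group (up to 0.11). Chondrocyte markers summed to 21040 to 25840 CPM in these compressed libraries and 27840 to 28850 CPM under vehicle. Fibroblast markers summed to 532.2 to 569.6 and 581.2 to 625.6 CPM, and the part of either list in the call was not tested. By edgeR 0 of 9 were called in siNTC at 9 h (background 6.43%), where 2 had an unadjusted p under 0.05, and 0 in siPIEZO1 at 3 h (background 0.600%), where 0 had. The count was also 0 in siPIEZO1 at 9 h (background 2.18%), with 1 at an unadjusted p under 0.05, and DESeq2 called 0 in each of these 3. FAS, which rose in NT at 3 h, had log2 differences of 0.17 ± 0.14, adjusted p = 0.75, in siNTC and 0.28 ± 0.14, adjusted p = 0.4, in siPIEZO1. Whether the compression effect differed between siPIEZO1 and siNTC was tested as an interaction, and edgeR called 0 of 9 at 3 h (background 0%) and 0 at 9 h (background 1.09%). At each time 1 gene of the 9 had an unadjusted p under 0.05, and DESeq2 called 0. Of all genes at 3 h, 854 had an unadjusted p under 0.05 and DESeq2 called 0.

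Yoda1, which opens PIEZO1 without force, raised CDKN1A in siNTC at 3 h (background 5.40%) from 194, 227, 228 and 238 CPM to 272, 317, 297 and 296 CPM (log2 0.42 ± 0.085, adjusted p = 0.0035). The groups did not overlap, and the call was lost when only these groups were fitted (adjusted p = 0.1). It also raised FAS in siPIEZO1 at 9 h (background 2.54%) from 26.4, 22.5, 25.3 and 23.7 CPM to 31.3, 34.3, 31.8 and 36.9 CPM (log2 0.46 ± 0.12, adjusted p = 0.038). That call was lost without siPIEZO1 vehicle replicates 2 or 4 or Yoda1 replicates 2, 3 or 4 (up to 0.15). In NT edgeR called 0 of 9 at 3 h (background 0.409%), where 3 had an unadjusted p under 0.05 and DESeq2 called 1, BCL2L11. In NT at 9 h it called 0 of 9 and 0 of all genes (background 0%), where 1 of the 9 and 1580 of all genes had an unadjusted p under 0.05 and DESeq2 called 0 of the 9 and 17 of all genes. In siNTC at 9 h it also called 0 of 9 and 0 of all genes (background 0%), with 1 of the 9 and 982 of all genes at an unadjusted p under 0.05 and DESeq2 at 0 and 2. In siPIEZO1 at 3 h edgeR called 0 (background 0.262%), with 2 at an unadjusted p under 0.05 and 0 by DESeq2. The Yoda1 effect was not shown to differ between siPIEZO1 and siNTC: edgeR called 0 of 9 at 3 h (background 0.938%) and at 9 h (background 0.0269%), with 2 genes at an unadjusted p under 0.05 and 0 by DESeq2 each time.

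**Figure D5:**
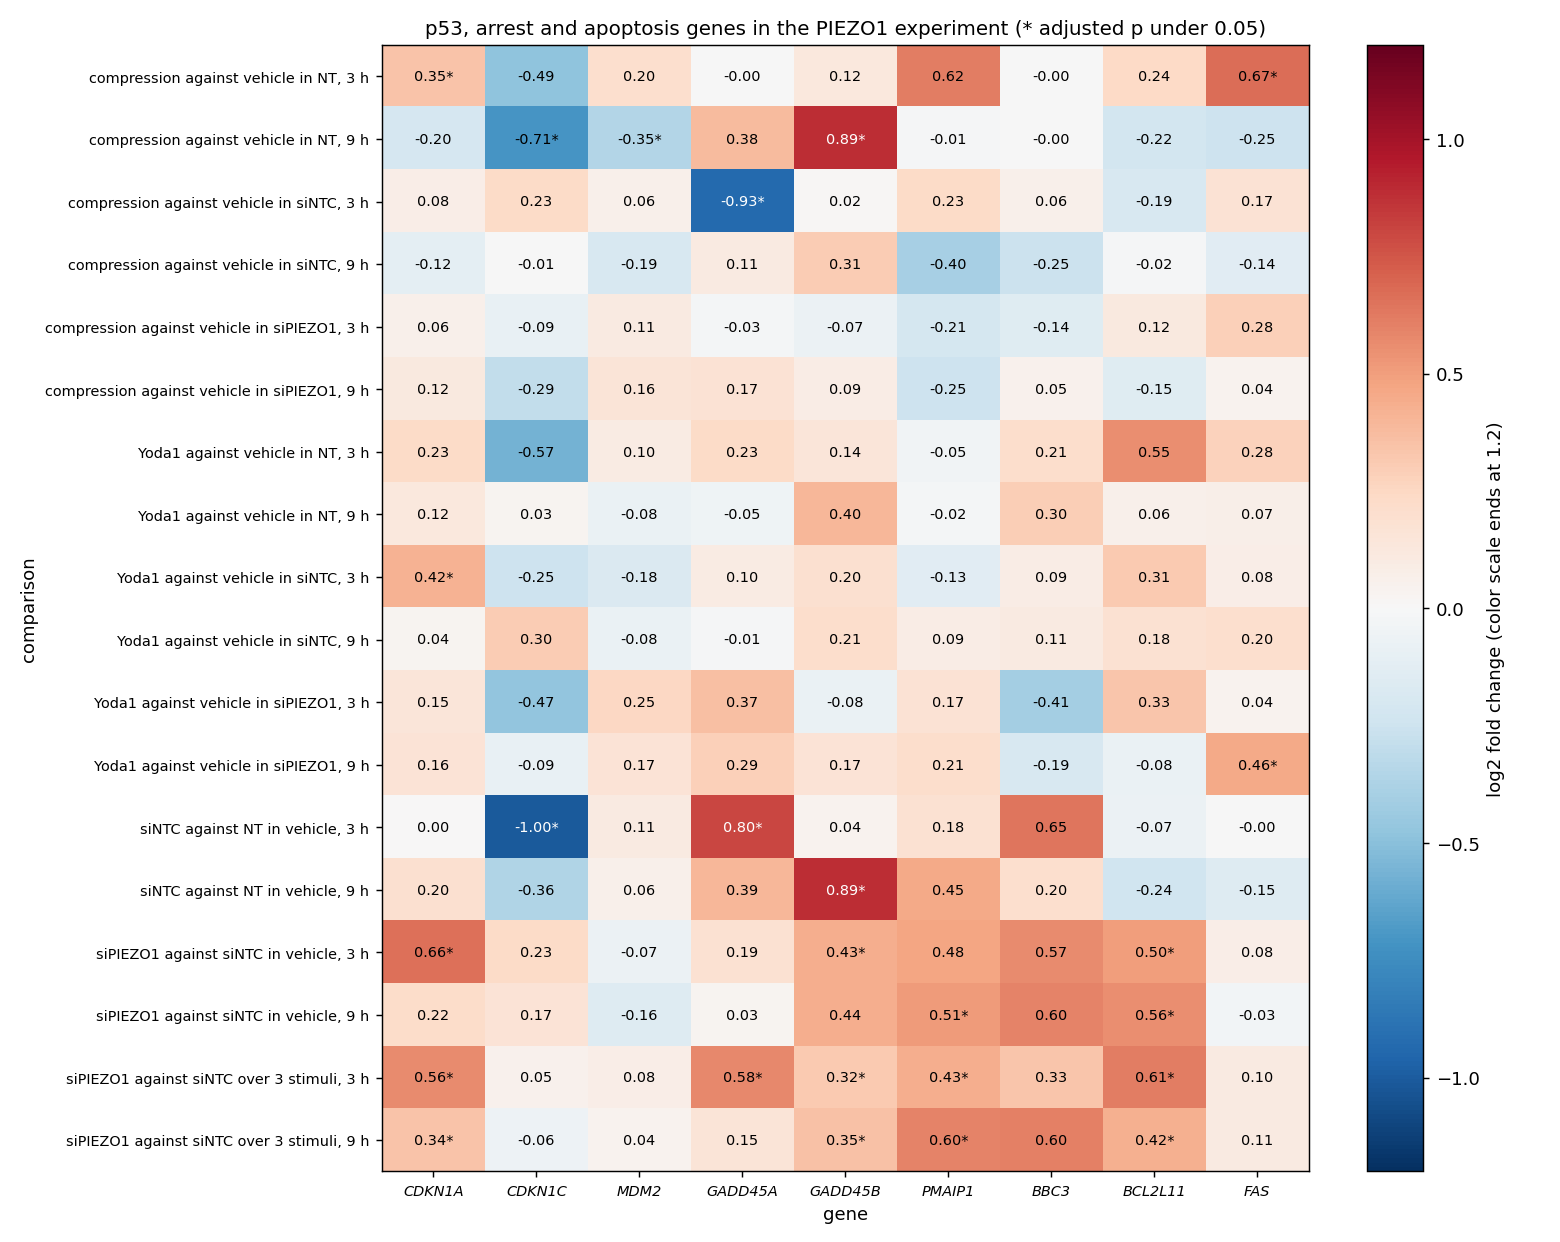
Log2 fold change (number and color) of 9 genes (columns) in 18 comparisons of the PIEZO1 experiment (rows); a star marks an adjusted p under 0.05. The color scale ends at 1.2. The rows of siPIEZO1 against siNTC over 3 stimuli have 5 stars at 3 h and 4 at 9 h.

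GADD45B was higher at 3 h than at 9 h throughout this experiment. Untransfected vehicle libraries held 359.6, 403, 386 and 368 CPM at 3 h and 83.5, 61.9, 68.6 and 55.0 CPM at 9 h, 5.64-fold lower (log2 -2.50 ± 0.16, adjusted p = 4.6e-20). All 9 groups at 3 h had means above all 9 groups at 9 h. In the same comparison 4 of the 9 genes were called (background 16.1%): CDKN1C was lower at 9 h (log2 -0.74 ± 0.16, adjusted p = 5.7e-04), and GADD45A (0.73 ± 0.22, adjusted p = 0.011) and CDKN1A (0.24 ± 0.085, adjusted p = 0.043) were higher. The GADD45A call was lost without 9 h replicate 3 (adjusted p = 0.052), and the CDKN1A call without replicates 1 or 3 of either group (up to 0.14). In these vehicle libraries the fibroblast markers summed to 978.2 to 1068 CPM at 3 h and 1275 to 1439 CPM at 9 h, while the chondrocyte markers overlapped. The part of this difference was not tested. GADD45A was also higher at 9 h than at 3 h in the DMSO groups of the TRPV4 experiment, while GADD45B there was not called (49.5 and 44.6 CPM; log2 -0.15 ± 0.078, adjusted p = 0.16). BBC3 was low in the PIEZO1 experiment, with 12 to 134 counts per library, and passed no test there.

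Other genes of the p53 network were described as a list of 28, of which 24 were tested. GSK101 left 11 higher and 7 lower at 3 h (median log2 0.19 beside 0.01 over all genes, background 40.0% called) and 12 higher and 11 lower at 9 h (0.07 beside -0.07, background 62.3%). At 3 h the largest changes were in the polo-like kinases PLK3 (log2 2.63 ± 0.10) and PLK2 (2.52 ± 0.13) and in the antiproliferative gene BTG1 (1.65 ± 0.061). At 9 h they were in PERP (2.05 ± 0.20), a membrane protein of desmosomes and apoptosis, BTG1 (1.85 ± 0.041) and the stress gene SESN3, which fell (-1.47 ± 0.057). IL-1 left 8 higher and 4 lower at 3 h (median 0.01 beside 0.01, background 32.2%) and 13 higher and 8 lower at 9 h (0.40 beside -0.07, background 65.1%). GDF15 (log2 1.38 ± 0.12), a secreted stress factor, led at 3 h with PLK2 and BTG1, and CCNG2 (2.81 ± 0.10), an atypical cyclin, led at 9 h with PLK2 and BTG3. Loading called 5 higher and 0 lower at 3 h, with PLK2 (log2 0.86 ± 0.13) first (background 10.2%), and 4 higher and 3 lower at 9 h (background 23.7%). Compression in NT called 2 higher and 0 lower at 3 h, BTG1 (log2 0.97 ± 0.13) and ZMAT3 (0.56 ± 0.16), beside a background of 6.27%, and 1 lower at 9 h, CCNG1 (background 3.51%). In siPIEZO1 against siNTC over the 3 stimuli, 4 higher and 0 lower were called at 3 h (background 15.1%) and 7 higher and 6 lower at 9 h (background 19.7%), with PERP higher at both times (log2 0.56 ± 0.11; 0.66 ± 0.089).

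Of 16 further genes of cyclin-dependent kinase inhibition and the G1 phase, 15 were tested. GSK101 left 7 higher and 3 lower at 3 h (median log2 0.31 beside 0.01, background 40.0%), led by GADD45G (log2 2.14 ± 0.10), the remaining GADD45 gene. At 9 h it left 7 higher and 7 lower (-0.22 beside -0.07, background 62.3%). The G1 drivers CCND1 (cyclin D1; log2 2.68 ± 0.087) and CDK6 (2.30 ± 0.067) then rose together with CDKN1A, and the kinase inhibitor CDKN2C fell (-1.64 ± 0.096). IL-1 left 2 higher and 4 lower at 3 h (median -0.03 beside 0.01, background 32.2%) and 6 higher and 8 lower at 9 h (-0.46 beside -0.07, background 65.1%). CDKN2B, the kinase inhibitor p15, rose at both times (log2 2.15 ± 0.22; 3.02 ± 0.16), and CCND1 fell at 9 h (-1.67 ± 0.098). CCND1 therefore moved in opposite directions from DMSO under the 2 agents at 9 h. In siPIEZO1 against siNTC over the 3 stimuli GADD45G was higher at 3 h (log2 1.63 ± 0.30) and 9 h (2.32 ± 0.25), among 3 higher and 3 lower at 3 h (background 15.1%) and 1 higher and 5 lower at 9 h (background 19.7%).

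Of 13 further BCL2 family genes only 7 could be tested, and BCL2 and BAX were not among them. BMF, a BH3-only gene, fell with GSK101 (log2 -0.89 ± 0.13 at 3 h; -2.19 ± 0.12 at 9 h) and with IL-1 (-1.02 ± 0.14; -1.81 ± 0.11), unlike BCL2L11. The antiapoptotic genes BCL2A1 (log2 1.93 ± 0.13) and BCL2L1 (1.56 ± 0.065) rose with GSK101 at 9 h, and BCL2A1 with IL-1 at 9 h (2.16 ± 0.13). BCL2L1 was higher with IL-1 at 3 h (0.51 ± 0.065) and lower at 9 h (-0.41 ± 0.066). Of the proapoptotic genes, BAK1 (log2 0.88 ± 0.076), BAD (0.21 ± 0.068) and BID (0.43 ± 0.085) were higher with GSK101 at 9 h, while BAK1 (-0.31 ± 0.10) and BID (-0.61 ± 0.10) were lower at 3 h. With IL-1 at 9 h BAK1 was higher (log2 0.32 ± 0.076) and BID (-0.24 ± 0.085) and BOK (-1.66 ± 0.27) were lower, and BOK was also lower with GSK101 at 9 h (-0.90 ± 0.27). Those of these genes outside the 3 largest changes of a comparison were named after their values were seen, to complete the counts. The counts were 0 higher and 3 lower for GSK101 at 3 h (median log2 0.04 beside 0.01, background 40.0%) and 5 higher and 2 lower at 9 h (0.43 beside -0.07, background 62.3%). For IL-1 they were 1 higher and 1 lower at 3 h (-0.09 beside 0.01, background 32.2%) and 2 higher and 4 lower at 9 h (-0.24 beside -0.07, background 65.1%). BCL2L1 was higher in siPIEZO1 than in siNTC over the 3 stimuli at 3 h (log2 0.40 ± 0.059, background 15.1%) and 9 h (0.43 ± 0.063, background 19.7%). The other tested genes of this list are not reported here for that comparison.

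Of 17 further death receptor and caspase genes, 14 were tested. IL-1, which raised FAS, left 10 higher and 0 lower at 3 h (median log2 0.35 beside 0.01, background 32.2%) and 9 higher and 2 lower at 9 h (0.44 beside -0.07, background 65.1%). Among the leading genes at both times were the apoptosis inhibitor BIRC3 (log2 3.57 ± 0.067; 3.53 ± 0.057) and CFLAR (1.43 ± 0.079; 2.91 ± 0.065), which blocks caspase-8 at the death receptor. GSK101 left 3 higher and 3 lower at 3 h (0.09 beside 0.01, background 40.0%), with BIRC3 (log2 0.93 ± 0.061) higher and the FAS adaptor FADD lower (-0.56 ± 0.066), and 9 higher and 3 lower at 9 h (0.53 beside -0.07, background 62.3%), led by CFLAR (1.28 ± 0.065). BIRC3 also rose with loading at 3 h (log2 0.37 ± 0.061, background 10.2%) and with compression in NT at 3 h (0.96 ± 0.12, background 6.27%). The other tested genes of this list are not reported here for loading and compression. In siPIEZO1 against siNTC over the 3 stimuli the list gave 2 higher and 3 lower at 3 h (background 15.1%) and 4 higher and 4 lower at 9 h (background 19.7%), with the TNF receptor TNFRSF1A higher at both (log2 1.10 ± 0.26; 1.27 ± 0.24).

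The genes whose group means of log2 CPM followed each of the 9 most closely over the 12 TRPV4 groups are given as a description, since groups share controls, libraries and depth. PMAIP1 followed the chemokine CCL20 (Pearson r = 0.99) and the cytokine receptor gene IL10RB (r = 0.99), and FAS followed the growth factor gene EREG (r = 0.99) and BTG3 (r = 0.99). BCL2L11 followed the stress gene PPP1R15A (r = 0.99) and SAT1 (r = 0.98), and CDKN1A followed the transcription factor gene MAFF (r = 0.96) and BMP2K (r = 0.95). GADD45B lay closest to CSRNP1 (r = 0.95) and BCL10 (r = 0.95), and MDM2 to an unnamed gene (ENSSSCG00000043975, r = 0.97) and DRAM1 (r = 0.96). The likeness was weaker for GADD45A, with HMGB2 (r = 0.88) and MKNK2 (r = 0.87), for CDKN1C, with KLHDC10 (r = 0.86) and PHF13 (r = 0.85), and for BBC3, with AXIN2 (r = 0.84) and SNAPC1 (r = 0.84). Over the 18 PIEZO1 groups the closest were HR (r = 0.98) for GADD45B, USP5 (r = 0.95) for GADD45A, GLT1D1 (r = 0.91) for CDKN1A and MOCS3 (r = 0.91) for FAS. No gene named for one experiment was named for the same one of the 9 in the other.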

How the data were processed

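RNA-seq read counts per gene were analysed for 120 libraries of pig chondrocytes, 48 in a TRPV4 experiment and 72 in a PIEZO1 experiment, with 4 libraries in each of 30 groups taken from the sample labels. The values are whole-number counts as the authors deposited them, not normalized. Per the submitters' processing notes, Trim Galore, STAR and HTSeq were used with the Sscrofa11.1 genome; versions and strand setting were not given in the sources used here. The table had 32388 lines, of which 481 repeated lines with identical counts were removed. Symbols came from the count table itself (16681 genes), a gene name table (822) and, by Entrez identifier, the RefSeq gene table of Sscrofa11.1 (2526). Positions are those of that RefSeq table. No column was left out.

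Counts were scaled by TMM and tested with edgeR 4.0.16 (R 4.3.3; limma 3.58.1) by glmQLFit and glmQLFTest, 1 term per group, each experiment and time apart, and over both times for the time contrasts. Genes passed filterByExpr with a minimum count of 10, which left 16562 and 16540 genes in the TRPV4 experiment and 18330 and 18611 in the PIEZO1 experiment at 3 h and 9 h, and 17447 and 20202 over both times. P-values were adjusted by Benjamini-Hochberg over all genes of a comparison and called under 0.05. CPM divide each count by the library's TMM-scaled total and multiply by 1e6. The biological coefficient of variation common to all genes came to 0.107 (3 h) and 0.0874 (9 h) for TRPV4 and to 0.282 and 0.300 for PIEZO1 libraries, so smaller differences could be called in the former. Pairs of libraries within a group differed by more than counting noise (chi-square per degree of freedom at least 5.48 and 12.5).

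Alternatives were DESeq2 1.42.0, DESeq2 size factors within edgeR, no filter on low counts, a replicate block, only the groups compared, protein-coding genes only and leaving out each library; counts thinned to the shallowest library were added after the data were seen, as were 4 of the 44 comparisons. Besides the 10 genes, the text names from each pathway list up to 3 called genes with the largest absolute log2 fold change in a comparison, and for each of the 10 the 2 genes of most similar pattern. Some genes of these lists are not reported here. The genes and lists were chosen with earlier results of these data known.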

Additional observations from a re-analysis of the deposited data

Results flagged for a closer look

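The values below are library levels that stood apart from the other 3 of their group by Dixon's ratio, or treatment effects that differed between conditions by the test of that difference. Dixon's ratio was applied to 108 groups of values in the TRPV4 experiment and 162 in the PIEZO1 experiment and marked 19 libraries, and chance marks about 1 in 20 groups. In the TRPV4 experiment the library standing apart was the highest for MDM2 under loading at 9 h (81.4 CPM), CDKN1A under loading with GSK205 at 3 h (164 CPM), CDKN1C under loading at 9 h (12.1 CPM) and GADD45B in IL-1 at 9 h (118.5 CPM). It was also the highest for PMAIP1 and FAS in GSK205 at 9 h (3.25 and 16.1 CPM) and BCL2L11 in GSK205 at 3 h (6.22 CPM), and the lowest for GADD45B under loading with GSK205 at 9 h (38.1 CPM).

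In the PIEZO1 experiment it was the highest for MDM2 in NT under Yoda1 at 9 h (84.6 CPM) and for CDKN1A in NT under Yoda1 (278 CPM) and siPIEZO1 under vehicle (392 CPM) at 3 h. It was the lowest at 3 h for MDM2 and CDKN1C in siNTC under Yoda1 (43.3 and 15.2 CPM), CDKN1A in NT under compression (246.5 CPM), GADD45A and BBC3 in siNTC under vehicle (12.7 and 0.764 CPM) and GADD45B in siNTC under compression (292 CPM). It was the lowest at 9 h for GADD45B in NT (60.0 CPM) and FAS in siPIEZO1 (21.5 CPM), both under compression.

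The loading effect differed with and without GSK205 at 9 h for CDKN1A (log2 -0.44), CDKN1C (-0.56) and GADD45B (-0.26). Between 3 h and 9 h the GSK101 effect differed for CDKN1A (log2 0.31), CDKN1C (-1.002), GADD45A (-1.26), GADD45B (0.34), BBC3 (-0.97) and FAS (0.69). The IL-1 effect differed for MDM2 (log2 0.65), CDKN1A (-0.23), CDKN1C (0.57), GADD45B (-0.86), PMAIP1 (1.74), BBC3 (1.10) and FAS (1.62). The loading effect differed for CDKN1A (log2 -0.54), GADD45B (-0.66) and BCL2L11 (-0.54), and the compression effect in NT for MDM2 (-0.56), CDKN1A (-0.55), GADD45B (0.76) and FAS (-0.92). A negative value means a lower effect at 9 h than at 3 h or, for loading with and without GSK205, a lower effect with GSK205.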

How the results depend on the processing

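Of 396 pairs of a gene and a comparison, 127 were called, and 106 of these calls held in every alternative setting, 96 without any single library and 94 in both; no call reversed its direction. The number of the 9 genes called moved by more than 1.5 times in these cases, and the cause was not tested. GSK205 against DMSO at 3 h went from 3 to 5 with protein-coding genes only. DESeq2 called 1 in place of 0 for the loading by GSK205 interaction at 3 h and for Yoda1 in NT at 3 h. Fitting only the groups compared, which leaves fewer samples for the spread, gave 1 in place of 0 for Yoda1 in NT at 3 h, 0 in place of 1 for Yoda1 in siNTC at 3 h and in siPIEZO1 at 9 h, 1 in place of 2 for siPIEZO1 against siNTC in vehicle at 9 h (also 1 with no filter on low counts) and 2 in place of 4 for DMSO at 9 h against 3 h. Besides these and the losses named above, it ended the calls of PMAIP1 in GSK101 at 3 h (adjusted p = 0.067), MDM2 in IL-1 at 3 h (0.12), GADD45B under GSK205 (0.056) and in the loading by GSK205 interaction (0.07) at 9 h, BCL2L11 under loading at 9 h (0.05), for its effect between times (0.079) and in siPIEZO1 against siNTC in vehicle at 3 h (0.15), GADD45B for the compression effect between times (0.069) and CDKN1C in GSK101 against IL-1 at 9 h (0.058). With no filter, calls were also lost for CDKN1A in loading with GSK205 against loading at 3 h (0.067) and in NT vehicle between times (0.088). BCL2L11 lost its calls there for the loading effect between times (0.079) and in siPIEZO1 against siNTC in vehicle at 3 h (0.06). Thinning ended that CDKN1A call under loading with GSK205 (0.061) and the one of CDKN1C against GSK205 at 3 h (0.057). Protein-coding genes only ended GADD45A in IL-1 at 9 h (0.061).

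Leaving out 1 library at a time gave 2 to 3 in place of 4 for loading at 9 h, 1 to 3 (main 3) for the loading by GSK205 interaction at 9 h, 1 to 3 (main 2) for compression in NT at 3 h and 0 to 2 (main 0) for Yoda1 in NT at 3 h. It gave 0 to 1 (main 1) for compression in siNTC at 3 h and for Yoda1 in siPIEZO1 at 9 h, 1 to 2 (main 2) for siNTC against NT at 3 h and 1 to 3 (main 1) at 9 h, 1 to 3 (main 3) for siPIEZO1 against siNTC in vehicle at 3 h and 1 to 2 (main 2) at 9 h. It gave 0 to 1 (main 0) for the compression by siRNA interaction at 9 h and 2 to 5 (main 4) for DMSO at 9 h against 3 h. The high end came without NT vehicle replicate 4 for Yoda1 in NT at 3 h, without siNTC vehicle replicate 4 for siNTC against NT at 9 h and without siPIEZO1 vehicle replicate 3 for the compression by siRNA interaction.

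Over all genes, the number called moved by more than 1.5 times with DESeq2 in 15 of 41 comparisons. These were Yoda1 in NT (75 to 230), siNTC (989 to 1629) and siPIEZO1 (48 to 157) at 3 h and in siPIEZO1 at 9 h (472 to 892), and the Yoda1 by siRNA interaction at 3 h (172 to 519) and 9 h (5 to 111). They were also compression in siNTC (167 to 398) and siPIEZO1 (110 to 304) at 3 h and in NT (653 to 1216), siNTC (1196 to 1929) and siPIEZO1 (405 to 718) at 9 h, with its siRNA interaction at 9 h (202 to 510). The last were the loading by GSK205 interaction at 3 h (372 to 685), loading with GSK205 against loading at 9 h (678 to 1181) and siPIEZO1 against siNTC in vehicle at 3 h (929 to 1410). Fitting only the groups compared moved 14: Yoda1 in NT (75 to 210), siNTC (989 to 21) and siPIEZO1 (48 to 7) at 3 h and siPIEZO1 at 9 h (472 to 2), its interaction (172 to 3; 5 to 0), and compression in NT at 9 h (653 to 419), siNTC at 3 h (167 to 309) and 9 h (1196 to 589) and siPIEZO1 at 3 h (110 to 2), with its interaction at 9 h (202 to 44). The rest were loading at 3 h (1683 to 1021) and siPIEZO1 against siNTC in vehicle (929 to 244; 2017 to 1313). The Yoda1 by siRNA interaction at 9 h went from 5 to 16 with no filter and to 2 with protein-coding genes only. DESeq2 size factors and thinning moved no count by that much, but the size factors moved the split of the loading by GSK205 interaction at 3 h from 148 higher and 224 lower to 157 higher of 288.

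Deviations of samples with the same replicate number were at most weakly correlated, from -0.116 to 0.102 over the pairs of 32 comparisons. In 0 of the 32 was every pair over 0.1, a rule that a weak pairing would not meet. With the replicate number as a block, 2 calls were lost (CDKN1A in loading with GSK205 against loading at 3 h, BCL2L11 under loading at 9 h) and 2 were gained (GADD45B in the former comparison, adjusted p = 0.04; BBC3 in IL-1 at 9 h, adjusted p = 0.042). The block moved the number of all genes called by over 1.5 times for compression in NT at 9 h (653 to 1043), the loading by GSK205 interaction at 3 h (372 to 230) and the Yoda1 by siRNA interaction at 9 h (5 to 88). Depth limits PMAIP1 in DMSO and BBC3 in the PIEZO1 experiment, which rest on few reads.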
